A study of Mus musculus with 24 samples.

Results

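Small RNA libraries of mouse neural progenitor cells (NPC) carrying an expanded Htt allele named Q92 were compared with those of wild-type (WT) NPC. The comparison used 2 libraries of each group, which were 4 of the 24 libraries of the series, chosen by their genotype and cell type in the labels. The whole series holds mouse embryonic stem cells (mESC) and NPC of 6 genotypes, with 2 libraries in each of 12 groups. Per the labels, these are an Htt knockout (KO), WT, and lines of an allelic series, heterozygous for a knock-in allele, named Q20, Q50, Q92 and Q111 for the number of CAG repeats. For Q92, titles give 92 repeats, whereas the description of cell growth and the column headers give 89. Per the labels, the mESC were grown with LIF on irradiated CF-1 mouse fibroblasts, and the NPC were made from mESC and then kept on laminin in medium with FGF and EGF. No age or treatment beyond these culture conditions is given for any group. Each genotype is represented by a single line, so the repeat length and other differences between the lines cannot be told apart. The design text calls the 2 libraries of a group biological samples and does not say whether they came from separate cultures, so p-values measure the spread between these libraries, which may be technical.

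Huntingtin, the product of Htt, is a large scaffold protein, and long CAG tracts near the start of its coding sequence cause Huntington's disease, which strikes striatal and cortical neurons. NPC are dividing precursors of neurons and glia. Small RNA libraries catch short structured RNAs whole and longer RNAs as pieces. Small nucleolar RNAs (snoRNAs) are mostly cut from introns of host genes: box C/D snoRNAs, with symbols starting Snord, guide methylation of ribosomal and spliceosomal RNA, and box H/ACA snoRNAs, with symbols starting Snora, guide pseudouridylation. Y RNAs are short noncoding RNAs bound by the Ro60 protein, with parts in RNA quality control and DNA replication. In bulk libraries, fewer cells of a type and less RNA per cell cannot be told apart.

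The RNAs below are some of those called between Q92 and WT NPC and are shown 5′ to 3′ on their own strand. Snord15a and Snord71 were not called in every fit with a library left out. In the box C/D snoRNAs, capitals mark the first TGATGA (the form of the C box searched) and the last CTGA (the D box). Rny3 and Snord15a were higher in Q92 NPC, while Snord87, Snord61 and Snord98 were lower, and these 4 snoRNAs lie in introns of 4 different hosts. Snord71 and mt-Ts2, the mitochondrial transfer RNA for serine read at AGY codons, were lower in Q92 NPC than in each of the 3 lines tested against it. Sequences and positions are those of GENCODE M21 on GRCm38.
Rny3 (chr6:47781624-47781725, plus strand): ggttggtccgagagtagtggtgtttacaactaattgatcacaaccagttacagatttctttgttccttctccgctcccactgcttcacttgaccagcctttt
Snord15a (chr7:99482785-99482932, minus strand): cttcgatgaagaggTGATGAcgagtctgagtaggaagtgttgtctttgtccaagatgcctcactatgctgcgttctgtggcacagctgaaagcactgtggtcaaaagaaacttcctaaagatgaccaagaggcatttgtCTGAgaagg
Snord87 (chr1:9942463-9942549, minus strand): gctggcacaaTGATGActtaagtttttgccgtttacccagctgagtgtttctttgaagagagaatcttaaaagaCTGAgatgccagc
Snord61 (chrX:57391449-57391519, minus strand): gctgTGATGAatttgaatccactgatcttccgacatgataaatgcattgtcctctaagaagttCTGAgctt
Snord98 (chr10:62765576-62765640, minus strand): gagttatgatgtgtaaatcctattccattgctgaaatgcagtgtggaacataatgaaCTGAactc
Snord71 (chr8:109839295-109839379, plus strand): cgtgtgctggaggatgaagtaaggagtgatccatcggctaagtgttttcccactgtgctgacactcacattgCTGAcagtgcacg
mt-Ts2 (chrM:11613-11671, plus strand): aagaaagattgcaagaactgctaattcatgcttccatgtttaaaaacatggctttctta
Of the 41 Snord genes tested, 70.7% held TGATGA on their own strand and 2.44% on the opposite strand, and 100% held CTGA, with 29.3% holding it on the opposite strand. The 2 motifs can overlap, since the letters TGA of CTGA can open a TGATGA. The C box letters were present in 2 of the 3 Snord genes called higher and in 16 of the 23 called lower.

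The total count per library was 682113 and 440699 in WT NPC and 439023 and 433804 in Q92 NPC, within the range of 342022 to 682113 over all 12 NPC libraries. The 2 Q92 libraries resembled each other more closely than the 2 WT libraries did: their counts differed by a chi-square per degree of freedom of 2.04, against 39.7 for the WT pair. The Y RNA Rny1 took 22.3% and 13.0% of the counts in the WT libraries and 21.1% and 23.3% in the Q92 libraries. Stem-cell microRNAs of the Mir290 and Mir302 clusters had no count in any of these 4 libraries, and among the other NPC libraries they were counted mainly in the Q20 pair, with 201 and 233 counts. Over all 12 NPC libraries the biological coefficient of variation was 17.3%. The fit takes all groups to vary alike, although their pairs did not. The chi-square per degree of freedom was 33.8 for KO, 2.57 for Q20, 19 for Q50 and 3.96 for Q111 NPC.

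Htt itself could not serve as a check of the genotype, since the knock-in adds a repeat to the transcript rather than removing it and too few reads fell on it. The gene (chr5:34761740-34912534) had 9 and 2 counts in WT NPC and 2 and 3 in Q92 NPC. The KO libraries held 1 count each. These counts are too low to rank the groups, and Htt was not tested.

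Q92 NPC held more pieces of messenger RNA and more of the Y RNA Rny3 than WT NPC, and less of many box C/D snoRNAs and of the mitochondrial transfer RNA mt-Ts2. Of 441 genes tested with edgeR's quasi-likelihood test, 83 (18.8%) passed an adjusted p of 0.05, with 38 higher in Q92 (8.62%) and 45 lower (10.2%). In all 83, the scaled values of the 2 groups did not overlap, and the unscaled shares of all counts did not overlap in 38 of the 38 higher and 44 of the 45 lower genes. These genes were selected by p from the same values, so the lack of overlap adds no separate support. The share of genes without overlap over all 441 is not given here. Of the genes tested, 244 were protein-coding and 106 were snoRNAs. Protein-coding genes made up 28 of the 38 higher and 5 of the 45 lower calls, and snoRNAs 8 of the higher and 32 of the lower calls. The median log2 change was 1.57 over the higher genes and -0.69 over the lower genes. In 28 of the 38 higher and 6 of the 45 lower genes, none of the 4 libraries reached 50 counts. A gene with few counts passes only with a large change, so these 2 medians do not compare the size of the changes. The median over all 441 genes was 0.24, because scaling by the trimmed mean of M-values (TMM) does not set it to 0.

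The number of calls fell without 3 of the 4 libraries and rose without WT replicate 2. In that fit, some of the calls were lost and others were new. With WT replicate 1 left out, 42 genes were called, with WT replicate 2 left out 94, with Q92 replicate 1 left out 22 and with Q92 replicate 2 left out 10. The genes called in all 4 of these fits were Peg10, Nedd4, Rny3 and Gm23547 among the higher and Snord87, Snord61, Snord98, Snord43, Gm24494 and mt-Ts2 among the lower. The split between directions rested on the scaling: DESeq2 size factors gave 22 higher and 58 lower, library totals gave 46 higher and 11 lower, and TMM without genes above 5% of the counts gave 38 higher and 40 lower.

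**Figure D1:**
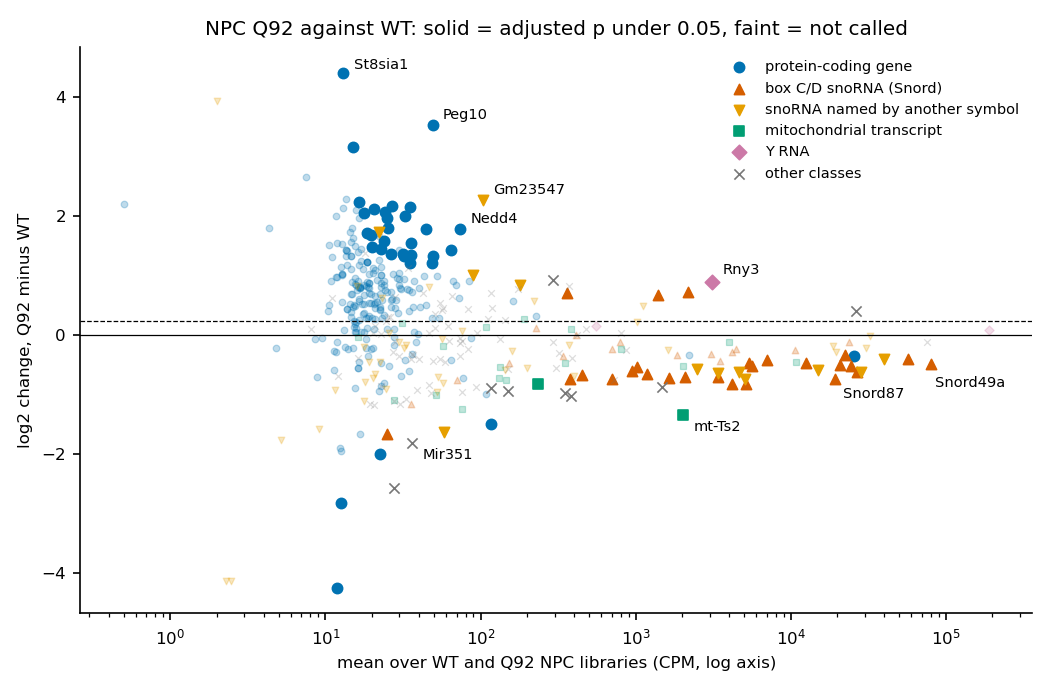
Log2 change between Q92 and WT NPC (y axis) against the mean of the 4 libraries in CPM (counts scaled to a library total of 1e+06, log x axis) for the 441 tested genes. Solid symbols are the 83 called genes, faint ones were not called, the dashed line is the median over all genes (0.24), and the called protein-coding genes lie to the left and mostly above 0 while the called Snord genes lie to the right and mostly below 0.

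Rny3 rose in Q92 NPC. Its level was 2503 and 1847 CPM (counts scaled to a library total of 1e+06) in the WT libraries and 3902 and 4211 CPM in the Q92 libraries. Both Q92 libraries lay above both WT libraries and above the other 8 NPC libraries, which ranged from 1874 to 2612 CPM. The log2 change was 0.90 (SE 0.16, adjusted p = 0.00193), and with no filter on low counts, where the scaling was computed over all genes as well, it was 0.51 and not called. As a share of all counts, which uses no scaling, Rny3 held 0.234% and 0.187% in WT and 0.444% and 0.476% in Q92. The other Y RNA of high count, Rny1, stood at 238300 and 128100 CPM in WT and 185500 and 205900 CPM in Q92, where the groups overlapped (log2 change 0.10, SE 0.25, adjusted p = 0.81).

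Of the 38 genes that were higher in Q92 NPC, 8 were snoRNAs. The snoRNA with the smallest p was Gm23547 (chr6:124715232-124715502, 271 bases), which lies within an exon of Phb2, the gene of a mitochondrial prohibitin, so that pieces of the messenger and of the snoRNA cannot be told apart. It had 48.6 and 20.2 CPM in WT and 200 and 146.8 CPM in Q92, a log2 change of 2.27 (SE 0.44, adjusted p = 0.00298). No other NPC library exceeded 59.9 CPM.

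Snord15a, a box C/D snoRNA in an intron of Rps3, rose from 1449 and 1816 CPM in WT to 2570 and 2853 CPM in Q92 (log2 change 0.73, SE 0.17, adjusted p = 0.0108). Snora62, a box H/ACA snoRNA in an intron of Rpsa, was at 177.0 and 230.9 CPM in WT and 398.0 and 373.1 CPM in Q92 (log2 change 0.92, SE 0.23, adjusted p = 0.012). Both Rps3 and Rpsa encode proteins of the small ribosomal subunit. Snord93 was at 1084 and 1058 CPM in WT and 1668 and 1745 CPM in Q92 (log2 change 0.67, SE 0.17, adjusted p = 0.012). Of its 30-base stretches, 31.0% also occur in Mir3096, so its reads may be divided between the genes. The remaining 4 higher snoRNAs, Snord17, Gm23136, Gm22486 and Gm25636, had log2 changes of 0.71, 0.84, 1.01 and 1.74 and are named after their values were seen. Snord15a and Snora62 lost their calls when WT replicate 1 or either Q92 library was left out, with log2 changes from 0.58 to 0.81 for Snord15a in these 3 fits. Snord93 lost its call without either Q92 library, Gm23136 also without WT replicate 2, and Snord17, Gm22486 and Gm25636 when any of the 4 libraries was left out. Gm42418, a transcript annotated as long noncoding RNA and overlapping other genes on the opposite strand, was the remaining noncoding gene that was higher, at 25060 and 20330 CPM in WT and 31440 and 28900 CPM in Q92 (log2 change 0.41, adjusted p = 0.0176). Its call ended with DESeq2 size factors (log2 change 0.25) and when WT replicate 2 (0.22), Q92 replicate 1 (0.35), Q92 replicate 2 (0.47) or the Q20 group (0.36) was left out. With no filter its log2 change was 0.03, and the DESeq2 Wald test did not call it (adjusted p = 0.168).

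Pieces of protein-coding messengers made up the largest number of higher calls. Of 244 protein-coding genes tested, 28 were called higher and 5 lower, with a median log2 change of 0.76 over the class beside 0.24 over all tested genes. The number called higher was 35 with library totals, 16 with DESeq2 size factors, 13 with the 4 libraries alone and 4 with the DESeq2 Wald test. Individual counts were small. The 28 higher genes had a median of 13 counts summed over the WT libraries and 41 summed over the Q92 libraries, and no library held more than 63 counts of any of them. Protein-coding genes other than Snrpb together took 2.39% and 2.92% of the counts in WT and 4.13% and 4.04% in Q92, while the other 8 NPC libraries lay between 2.13% and 3.46%. The number of such genes with any count was 5639 and 5194 in WT and 5921 and 5834 in Q92. The share of messenger pieces therefore moved as a class with the group, and its part in the single-gene calls was not tested.

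Peg10, an imprinted gene derived from a retrotransposon and needed for placental development, had the smallest p of all higher genes. Its level was 3.13 and 13.5 CPM in the WT libraries, from 2 and 6 counts, and 86.0 and 93.8 CPM in the Q92 libraries, from 43 and 46 counts. The WT libraries were the lowest of the 12 NPC libraries and the Q92 libraries the highest. The KO, Q20, Q50 and Q111 libraries lay between 16.9 and 54.3 CPM. The log2 change from WT to Q92 was 3.53 (SE 0.46, adjusted p = 0.000155). Among the listed imprinted genes outside the Dlk1-Dio3 region, 4 were tested, 1 was called and the median log2 change was 1.83. Mest had 12.5 and 60.5 CPM in WT and 62.0 and 75.4 CPM in Q92, and did not pass (adjusted p = 0.152).

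Nedd4, a ubiquitin ligase that marks membrane proteins for uptake, had 32.9 and 33.6 CPM in WT and 126.0 and 104.0 CPM in Q92. The values within each pair were close, and the log2 change was 1.78 (SE 0.34, adjusted p = 0.00286). With no filter on low counts it was 1.43 and not called (adjusted p = 0.263). The Q20 libraries, at 108.7 and 110.5 CPM, were as high as those of Q92, and the other 6 libraries of KO, Q50 and Q111 NPC stayed between 24.1 and 63.1 CPM.

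Further higher messengers encode proteins of metabolism, translation, cell structure and the cell cycle. Fth1, the heavy chain of the iron store ferritin, had 6.26 and 8.97 CPM in WT and 38.0 and 28.6 CPM in Q92 (log2 change 2.13, SE 0.51, adjusted p = 0.0108). Eef2, the translation elongation factor that moves the ribosome along the messenger, had 25.1 and 13.4 CPM in WT and 76.0 and 63.2 CPM in Q92 (log2 change 1.79), with 22.3% of its 30-base stretches shared with other genes. For both genes, both Q92 libraries were above both WT libraries, which was a condition for naming them.

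Slc5a3, a sodium-coupled transporter of myo-inositol whose exons overlap those of Mrps6 on the same strand, had 3.13 and 17.9 CPM in WT and 42.0 and 44.9 CPM in Q92 (log2 change 2.17). Sptan1, the α chain of brain spectrin in the membrane skeleton, had 14.1 and 22.4 CPM in WT and 50.0 and 55.05 CPM in Q92 (log2 change 1.55). The WT and Q92 pairs did not overlap for either gene, which was again a condition for naming them. Cdkn1a, the inhibitor p21 of cyclin-dependent kinases, had 4.70 and 6.73 CPM in WT and 20.0 and 34.7 CPM in Q92 (log2 change 2.24). St8sia1, the sialyltransferase that makes the ganglioside GD3, had 1 count over both WT libraries and 25 over both Q92 libraries, a ratio of 27.4 per scaled total (95% exact binomial interval 4.48 to 1120, counting error only). Eef2, Fth1, Slc5a3, Sptan1 and St8sia1 lost their calls when either Q92 library was left out. Without WT replicate 1, Fth1, Slc5a3, Sptan1 and Cdkn1a were not called, and Cdkn1a was not called without Q92 replicate 2. Without WT replicate 1 the log2 change of Slc5a3 fell to 1.26, and without WT replicate 2 it was 3.64.

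Neural stem and progenitor markers were present in both groups. Of 26 listed genes, 24 had a count in the 4 libraries, 12 could be tested, 2 were called higher and 0 lower. Of all 244 tested protein-coding genes, 28 were called higher and 5 lower. The median log2 change of the 12 markers was 0.52 (8 positive, 4 negative). It was 0.24 over all genes and 0.76 over protein-coding genes (199 positive, 45 negative), so the markers lay below the median of their own class. The summed level of the 26 listed genes was 496.5 and 600.9 CPM in WT and 646.0 and 638.2 CPM in Q92. Ccnd1, the G1 cyclin D1, had 4.70 and 22.4 CPM in WT and 74.0 and 38.7 CPM in Q92 (log2 change 2.17, SE 0.59, adjusted p = 0.0204), and its log2 change was 1.32 without WT replicate 1 and 3.46 without WT replicate 2. Vim, the intermediate filament of progenitor cells, had 26.6 and 29.1 CPM in WT and 56.0 and 85.6 CPM in Q92 (log2 change 1.34, adjusted p = 0.0262). Both Ccnd1 and Vim lost their calls when WT replicate 1 or either Q92 library was left out. Fabp7, a fatty-acid binding protein of radial glia, had 51.7 and 47.1 CPM in WT and 86.0 and 91.8 CPM in Q92, and did not pass (adjusted p = 0.126). Among low members picked after their values were seen, the transcription factor Pax6 had 2 and 5 counts in WT and 0 and 0 in Q92, Hes5 had 8 and 2 against 0 and 1, and the receptor Notch1 had 20 and 12 against 10 and 5. Slc1a3, the glutamate transporter GLAST, had 90.8 and 199.5 CPM in WT and 72 and 71.4 CPM in Q92 (adjusted p = 0.0933).

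Markers of other cell types were sparse in these libraries. Pluripotency messengers had 0 and 0 counts in WT and 1 and 2 in Q92, with Pou5f1 and Nanog at 0, and none of the endoderm messengers was counted. Oligodendrocyte lineage messengers had 14 and 5 counts in WT and 0 and 1 in Q92, a summed level of 21.9 and 11.2 CPM against 0.0 and 2.04 CPM. Of their 8 genes, 5 were at 0 in all 4 libraries, among them Mbp, Mog and Sox10, and the counts in WT were those of Pdgfra (10 and 3) and Cspg4 (4 and 2). Astrocyte messengers had 20 and 4 counts in WT and 3 and 8 in Q92, with Gfap at 0. Neuron messengers had 31 and 9 counts in WT and 18 and 29 in Q92, most of them from Map2, with Tubb3 and Rbfox3 at 0. Fibroblast and feeder messengers had 3 and 8 counts in WT and 3 and 4 in Q92. The part of the oligodendrocyte lineage counts in the gene differences was not tested.

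Of 5 tested messengers of the extracellular matrix and adhesion, 1 was called. Lamb1, the β1 chain of laminin, had 6.26 and 11.2 CPM in WT and 28.0 and 28.6 CPM in Q92 (log2 change 1.72, SE 0.56, adjusted p = 0.0421). Its call ended with DESeq2 size factors (1.56), no filter, the DESeq2 Wald test, the replicate block, the 4 libraries alone and no Q20 group. It also ended when any of the 4 libraries was left out, with log2 changes from 1.31 to 2.08. Tenascin C (Tnc), a matrix protein of neural stem cells, had 59.5 and 53.8 CPM in WT and 82.0 and 93.8 CPM in Q92 and did not pass (adjusted p = 0.144). None of the 5 tested ribosomal protein messengers and none of the 15 tested replication-dependent histone genes was called, with median log2 changes of 1.27 and -0.05. Rpl7a, which had by far the most counts of the 5, lay at 2349 and 2585 CPM in WT and 2084 and 1831 CPM in Q92. The chromatin-associated long noncoding RNA Malat1 had 103.4 and 154.7 CPM in WT and 222.0 and 216.1 CPM in Q92 (adjusted p = 0.0776).

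Of the 5 protein-coding genes that were lower in Q92 NPC, 4 are described here, some picked after their values were seen. Igfbp5, a secreted binding protein of insulin-like growth factors, had 26 counts over both WT libraries and 3 over both Q92 libraries, a ratio of WT to Q92 of 7.91 (95% exact binomial interval 2.43 to 40.9). Of its WT counts, 21 came from replicate 1, and without that library the log2 change was -1.79. Kif21b, a kinesin motor of neurons, fell from 47.0 and 24.7 CPM to 10 and 8.16 CPM (log2 change -1.99), and Atp9a, a membrane lipid flippase, from 120.6 and 226.5 CPM to 50.0 and 71.4 CPM (-1.50). Snrpb, which encodes the spliceosomal proteins SmB and SmB′, held 18975 and 12440 counts in the WT libraries. The median over the tested protein-coding genes was 16 counts summed over both. Whether the Snrpb counts are pieces of its messenger was not tested. Snrpb fell from 29720 and 27890 CPM to 23020 and 22350 CPM (-0.34). This rested on the scaling: the share of Snrpb in all counts was 2.78% and 2.82% in WT and 2.62% and 2.53% in Q92, and it was not called with library totals, without genes above 5% of counts in the scaling, with no filter or without the Q20 group. Igfbp5, Kif21b and Snrpb lost their calls without WT replicate 1 or either Q92 library, and Atp9a without WT replicate 2 or either Q92 library (largest adjusted p = 0.26, 0.153, 0.222 and 0.16).

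Box C/D snoRNAs were the class with the most lower calls. Of 41 tested Snord genes, 23 were called lower and 3 higher, with a median log2 change of -0.47. Relative to the median of all tested genes this was -0.71, and 38 of the 41 lay below that median. A change of scaling moves all genes by nearly the same amount, so this position could hardly differ, and was -0.71 with the other 3 scalings. The number of Snord genes called lower was 27 with DESeq2 size factors and 3 with library totals. Snord genes together took 38.4% and 42.7% of the counts in WT and 35.1% and 34.3% in Q92. The KO, Q20, Q50 and Q111 libraries lay between 28.6% and 40.6%, so the Q92 libraries were not outside the range of the other lines.

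**Figure D2:**
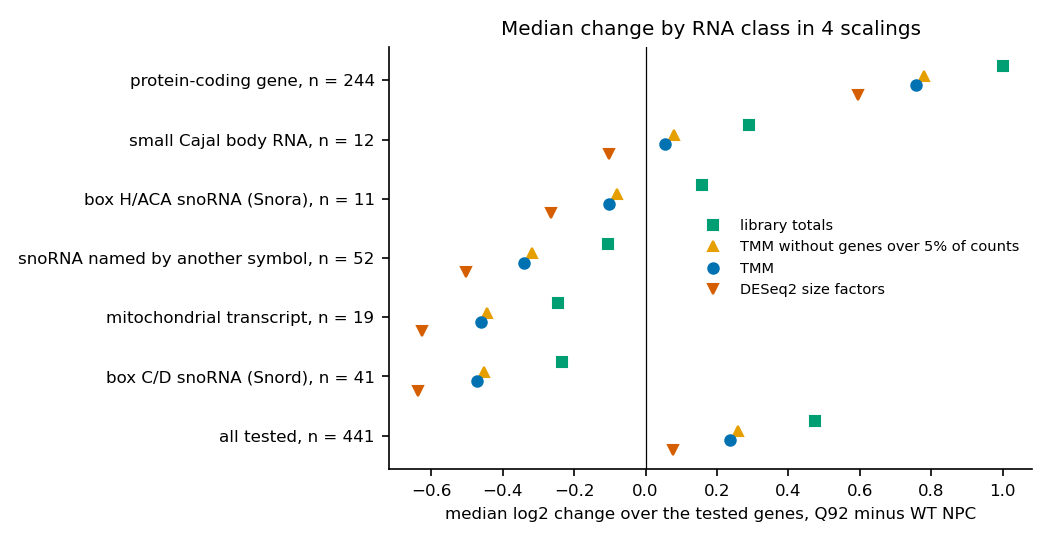
Median log2 change from WT to Q92 NPC (x axis) over the tested genes of each RNA class (y axis, with the number of genes) under 4 ways of scaling the libraries, 1 symbol each. The protein-coding median lies to the right and the Snord median to the left of that of all tested genes. This order could hardly differ between scalings, which move all genes by nearly the same amount. Among the classes drawn, the medians of H/ACA and small Cajal body RNAs change sign.

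Snord87, cut from an intron of the noncoding host Snhg6, had 23840 and 24170 CPM in WT and 14900 and 13970 CPM in Q92. The log2 change was -0.73 (SE 0.11, adjusted p = 0.000577). Q20 (15240 and 15500 CPM) and Q111 NPC (13090 and 14570 CPM) were also near the low values of Q92, while KO (20060 and 23570 CPM) and Q50 NPC (25950 and 25560 CPM) were near WT. The order of the lines by Snord87 level was not their order by repeat length.

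Snord61, from an intron of Rbmx, had 6733 and 6504 CPM in WT and 4030 and 3472 CPM in Q92 (log2 change -0.82, SE 0.13, adjusted p = 0.000743). The Q92 libraries were the lowest of the 12 NPC libraries. Snord98, from an intron of Ccar1, had 5262 and 5365 CPM in WT and 3126 and 2912 CPM in Q92 (log2 change -0.82, SE 0.13, adjusted p = 0.000864). Q111 NPC, at 3028 and 3099 CPM, lay between the 2 Q92 values, and every other NPC library was at or above 3837 CPM.

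Snord43 (in an intron of Rpl3 and annotated with the microRNA biotype) and Gm24494 (in an intron of Rabggtb) had smaller changes with close replicates. Snord43 went from 33000 and 31840 CPM to 21100 and 20980 CPM (log2 change -0.62, SE 0.11, adjusted p = 0.00147). Gm24494 went from 35340 and 32970 CPM to 22390 and 22280 CPM (-0.61, SE 0.10, adjusted p = 0.00147). Snord49a, in an intron of 2410006H16Rik, had 89900 and 98020 CPM in WT and 66810 and 66940 CPM in Q92 (-0.49, adjusted p = 0.00261). With library totals Snord43 and Snord49a were not called (log2 changes -0.39 and -0.26), and Snord49a was not called without Q92 replicate 2. The direction of Snord49a was not that of its level in Q111 NPC, which had 114600 and 121400 CPM.

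Further lower snoRNAs were Gm25970 (log2 change -0.73), Snord34 (-0.69), Gm23344 (-0.58), Snord71 (-0.69), Snord70 (-0.71), Snord59a (-0.51), Gm24837 (-0.61) and Gm25848 (-1.63). Snord71, which lies in an intron of Ap1g1, had 2803 and 2325 CPM in WT and 1638 and 1533 CPM in Q92 (SE 0.15, adjusted p = 0.00644). All 8 lost their calls without Q92 replicate 2, and with library totals Snord34, Gm23344, Snord71, Snord70, Snord59a and Gm24837 did so too. Among the H/ACA snoRNAs, 11 were tested and Snora31 was the single lower call, at 457.3 and 473.1 CPM in WT and 224.0 and 250.8 CPM in Q92 (log2 change -0.97). It was not called without WT replicate 1 or either Q92 library, nor with library totals.

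**Figure D3:**
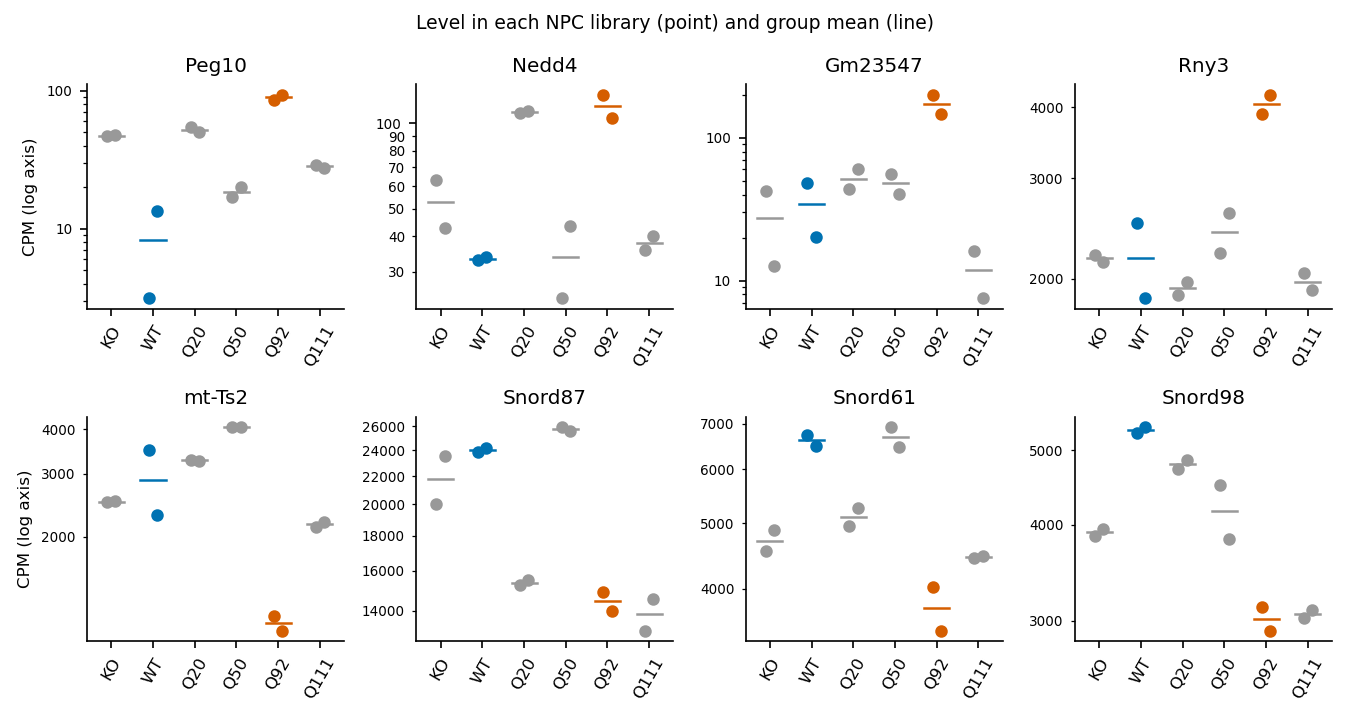
Level in CPM (log y axis) in each of the 12 NPC libraries (points) with the mean of each pair (lines), by genotype (x axis), for 8 of the 10 genes called whichever of the 4 libraries was left out. Q92 is at the top of the range for Peg10, Gm23547 and Rny3 and at the bottom for mt-Ts2 and Snord61, while Q20 is as high as Q92 for Nedd4, and Q111 is as low as Q92 for Snord87 and Snord98.

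Most tested snoRNAs were intronic, and those called lower were mostly short. Of the 106 snoRNAs tested, 87 lie in introns and 26 in introns of ribosomal protein genes. Of the 32 called lower, 31 lie in introns, 12 of them in introns of ribosomal protein genes. Their median length was 75 bases (64 to 144), against 142.5 bases (71 to 271) for the 8 called higher and 101.5 bases for the 66 not called. Length and log2 change correlated weakly over the 106 tested snoRNAs, which share the same libraries (Pearson's r 0.24, Spearman's rho 0.17), as a description only.

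Host genes were looked up after the values were seen. Of 15 hosts with at least 2 tested snoRNAs in introns, 4 had every tested snoRNA called lower: 2410006H16Rik (Snord49a, Snord49b and Snord65), Rpl13a (Snord32a, Snord34 and Snord35a), Rpl23a (Snord42a and Snord4a) and Rps3a1 (Rnu73b and Snord73a). None of these snoRNAs was called with library totals. Of all 106 tested snoRNAs 32 were called lower, and of the 41 Snord genes 23. Whether snoRNAs of a host moved together beyond these shares was not tested. Rpl4 held calls in both directions, with Gm23344 lower and Gm23136 higher. In 11 pairs of an intronic snoRNA and its host, both could be tested, and the host's log2 change was above the snoRNA's in 8. Among the hosts are the long noncoding RNA Rian and Ipo7, counted with both its tested snoRNAs. The snoRNA paired with Rian, Gm24564, had no count in the 4 libraries and so no change to measure. Of the tested genes, 184 of 244 protein-coding and 3 of 41 Snord genes lay above the median of all genes. The part of this class difference in the 8 pairs was not tested. At Eef2 and Ncl (nucleolin, a nucleolar RNA-binding protein) the messenger was called higher (log2 change 1.79 and 1.36) and the snoRNA within it, Snord37 and Snord82, lower (-0.47 and -0.49). At Ipo7, an importin, the messenger and Gm25636 were both higher (1.33 and 1.74). None of these 6 genes was called when Q92 replicate 2 was left out. Snord37 and Snord82 were not called with library totals, nor Ncl and Ipo7 with DESeq2 size factors, so the opposite calls rest on the scaling.

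Of the 3 Y RNAs, 12 small Cajal body RNAs, which guide modification of spliceosomal RNAs, and 2 tested RNAs among 7SK, signal recognition particle and RNase P and MRP RNAs, the sole call was that of Rny3. The median log2 change of the small Cajal body RNAs was 0.05 and turned to -0.10 with DESeq2 size factors. For H/ACA snoRNAs it was -0.10 and turned to 0.16 with library totals.

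Of 19 tested transcripts of the mitochondrial genome, 2 were called lower and 0 higher, near the 10.2% of all tested genes called lower. Their median log2 change was -0.46, or -0.70 relative to all tested genes, with 15 negative and 4 positive. Their share of all counts was 2.78% and 2.05% in WT and 2.16% and 1.99% in Q92, where the pairs overlapped. mt-Ts2 had 3486 and 2298 CPM in WT and 1200 and 1095 CPM in Q92, a log2 change of -1.34 (SE 0.17, adjusted p = 0.000155). The Q92 libraries were the lowest of the 12, the next being Q111 at 2137 and 2204 CPM. mt-Ts2 overlaps the neighbouring transfer RNA mt-Tl2 on the same strand, so reads across the junction cannot be assigned. mt-Co1, a subunit of cytochrome c oxidase, had 310.1 and 289.2 CPM in WT and 206.0 and 132.5 CPM in Q92 (-0.82, SE 0.25, adjusted p = 0.0297). Of its 30-base stretches, 64.8% also occur in other genes, and its call was lost without WT replicate 1 or Q92 replicate 2 (log2 change -0.54), with library totals, with no filter and with the 4 libraries alone (adjusted p = 0.102). The ribosomal RNA mt-Rnr2 had 15250 and 9695 CPM in WT and 9571 and 8731 CPM in Q92 and did not pass (adjusted p = 0.0677).

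**Figure D4:**
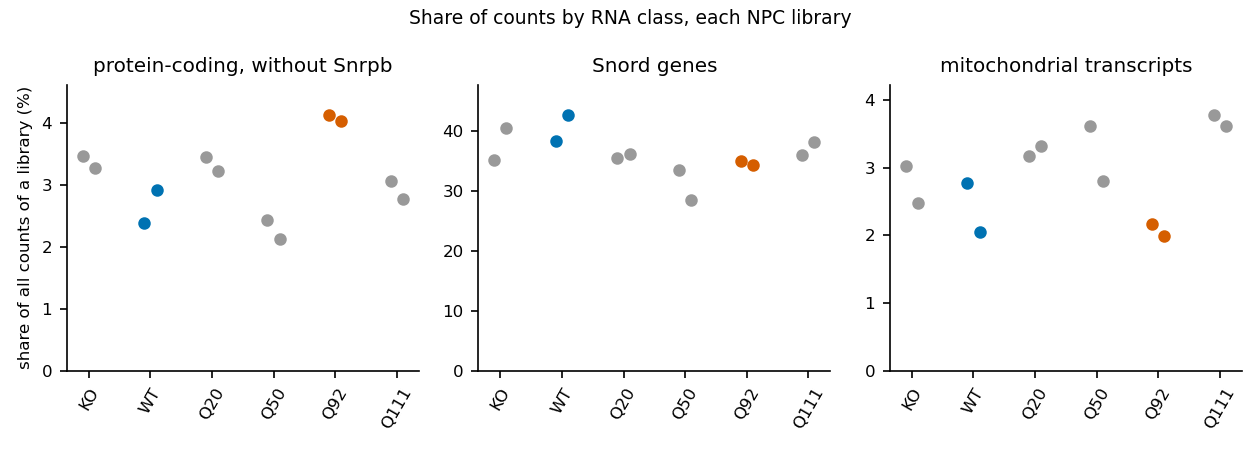
Share of all counts (y axis, percent, from 0) in each of the 12 NPC libraries by genotype (x axis) for protein-coding genes without Snrpb, Snord genes and mitochondrial transcripts. The Q92 libraries have the highest protein-coding shares (4.13% and 4.04%) and lie below both WT libraries in the Snord share, while in the mitochondrial share the WT and Q92 pairs overlap.

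Few microRNA genes were covered. Of 1180 in the table, 20 were tested, with 1 called lower and 0 higher. Of these 20, 7 had a positive and 9 a negative log2 change, and the other 4 had no count in the 4 libraries and so no change to measure. Mir351, an X-linked microRNA of the Mir322 cluster, had 73.6 and 38.1 CPM in WT and 18.0 and 14.3 CPM in Q92 (log2 change -1.81, SE 0.49, adjusted p = 0.0205). Its call was lost without WT replicate 1 (log2 change -1.22) or either Q92 library. RefSeq, on GRCm38.p6, gives 2 mature arms, printed with the seed (bases 2 to 8) in capitals because the seed decides which messengers a microRNA binds, and that of the 5′ arm is the seed of the Mir125 family.
miR-351-5p (chrX:53053315-53053338, minus strand): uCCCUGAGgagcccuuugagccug
miR-351-3p (chrX:53053276-53053296, minus strand): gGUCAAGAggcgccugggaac
The counts are for the gene as a whole and do not say which arm was read. Mir181a-1, a microRNA of brain and lymphoid cells, had 94.0 and 269.1 CPM in WT and 128.0 and 112.1 CPM in Q92, where the pairs overlapped (adjusted p = 0.319). Of the 4 tested neural microRNAs and the 1 tested let-7 microRNA, none was called. Of the imprinted Dlk1-Dio3 region, 5 noncoding RNAs were tested and none was called, with 0 positive and 3 negative log2 changes. The rest of the 5 had no count in the 4 libraries and so could not be called.

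Whether the differences from WT were also differences from the expanded lines on either side of Q92 was asked by testing Q92 against Q50 and against Q111 NPC in the same fit. These comparisons share the Q92 libraries with the comparison to WT, so they are not independent of it. Q92 differed from Q50 in 83 of 441 genes (18.8%; 25 higher, 58 lower) and from Q111 in 47 (10.7%; 18 higher, 29 lower). Leaving out 1 library of either pair gave 23 to 42 calls against Q50, the fewest without Q92 replicate 2, and 21 to 24 against Q111, the fewest without either Q92 library. Of the 38 genes above WT, 14 were also called above Q50, 10 above Q111 and 8 above both. Of the 45 genes below WT, 26 were also called below Q50, 10 below Q111 and 6 below both.

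The 8 higher genes were Peg10, Nedd4, Lamb1, Rny3, Snora62, Snord93, Gm23547 and Gm23136. With DESeq2 size factors, Lamb1 and Gm23136 were not called against WT, and the others were. Peg10 in Q92 was above Q50 by a log2 difference of 2.27 (SE 0.42, adjusted p = 0.00121) and above Q111 by 1.66 (SE 0.40, adjusted p = 0.0112). Rny3 was above them by 0.75 and 1.04 (adjusted p = 0.00392 and 0.000353), and Nedd4 by 1.79 and 1.59 (adjusted p = 0.00239 and 0.00599). The 6 lower genes were mt-Ts2, mt-Co1, Snord71, Snord13, Snord123 and Gm28438, the last sharing 99.1% of its 30-base stretches with mt-Nd3 and other genes. Gm28438 is also the lower gene whose unscaled shares overlapped between WT (0.0274% and 0.0740%) and Q92 (0.0287% and 0.0279%), and its log2 change from WT was -0.28 without WT replicate 2. mt-Ts2 was below Q50 by a log2 difference of -1.82 and below Q111 by -0.92 (adjusted p = 4.32e-06 and 0.00183). Snord71 was below them by -1.28 and -0.75 (adjusted p = 3.73e-05 and 0.00301). The lower level of mt-Ts2 was shared by its class. Of the 19 tested mitochondrial transcripts, 12 were called below Q50 and 6 below Q111, with 0 above either. Over all 441 genes, 58 were called below Q50 and 29 below Q111. The median log2 differences of the mitochondrial transcripts were -1.07 and -0.92, so mt-Ts2 against Q111 lay at the median of its class.

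Some genes were called between Q92 and Q50 and not between Q92 and Q111. Snord87 differed from Q50 by -0.84 (adjusted p = 8.41e-05) and from Q111 by 0.06 (SE 0.12, adjusted p = 0.73). Snord98 differed by -0.47 (adjusted p = 0.0187) and -0.02 (adjusted p = 0.95), and Snord61 by -0.84 (adjusted p = 0.000265) and -0.25 (adjusted p = 0.20). Snord15a was above Q50 by 0.64 (adjusted p = 0.0184) and differed from Q111 by 0.01 (adjusted p = 0.99). Among genes chosen by the smallest p in these comparisons, Snord90 was below Q50 by -1.42 (adjusted p = 4.27e-05). Rny1, picked after its values were seen, was below Q50 by -1.23 (adjusted p = 0.00239). The mitochondrial ribosomal RNA mt-Rnr1 was below Q111 by -1.64 (adjusted p = 1.63e-05) and was not called against WT (log2 change -0.12, adjusted p = 0.635).

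**Figure D5:**
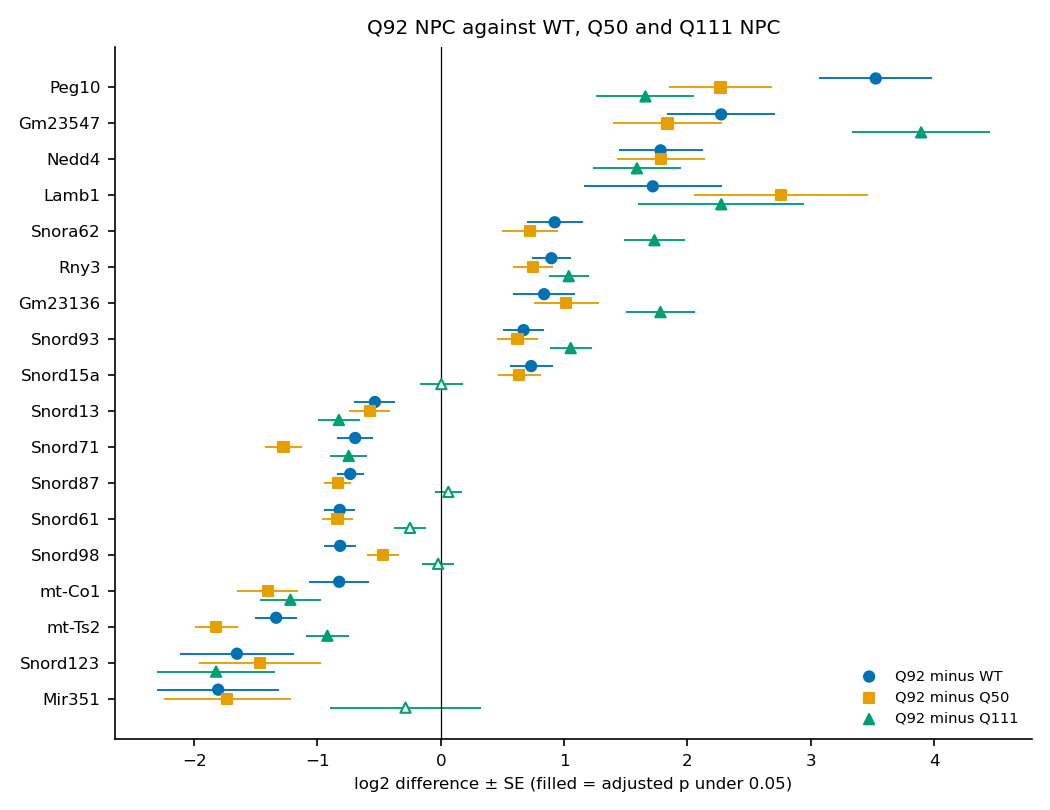
Log2 difference of Q92 NPC from WT, Q50 and Q111 NPC (x axis, symbol with SE bar) for 18 genes (y axis), where filled symbols passed an adjusted p of 0.05. Peg10, Nedd4, Rny3 and mt-Ts2 are filled in all 3 comparisons, while Snord15a, Snord87, Snord61, Snord98 and Mir351 are open against Q111.

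In mESC, which share the genotypes before differentiation, no gene passed the test between Q92 and WT (0 of 1766, 0%, by edgeR and also 0 by the DESeq2 Wald test), and 48 had an unadjusted p under 0.05. The spread was larger there, with a biological coefficient of variation of 37.9%. Of the 38 genes higher in Q92 NPC, 31 could be tested in mESC and 14 had the same sign. Of the 45 lower genes, 41 could be tested and 18 had the same sign. Peg10 had 11.04 and 11.07 CPM in WT mESC and 8.71 and 16.9 CPM in Q92 mESC (log2 change 0.16). The difference between its changes in NPC and mESC was 3.10 on the log2 scale (SE 0.75) and did not pass over all genes (adjusted p = 0.193). Gm25848, a snoRNA in an intron of Fbxo45, was lower in both cell types by point estimate, with 98.9 and 74.1 CPM in WT mESC and 23.6 and 25.9 CPM in Q92 mESC (log2 change -1.81, unadjusted p = 0.00197), and 90.8 and 85.2 CPM in WT NPC and 36.0 and 20.4 CPM in Q92 NPC.

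The change between Q92 and WT differed between cell types for 1 of 904 genes tested over all 24 libraries (0.111%), the long noncoding RNA Rian of the Dlk1-Dio3 region, and 61 had an unadjusted p under 0.05. Rian had 67.4 and 51.6 CPM in WT NPC and 22.0 and 44.9 CPM in Q92 NPC, and 618.3 and 333.9 CPM in WT mESC and 1835 and 1484 CPM in Q92 mESC. The call was lost when any of 5 libraries was left out: WT mESC replicate 2, either Q92 mESC library, WT NPC replicate 1 or Q92 NPC replicate 1 (adjusted p from 0.077 to 0.441).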

How the data were processed

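The authors deposited a table of whole-number counts per gene, not normalized. Per the labels, total RNA was extracted with TRIzol and read as 50-base single reads on a HiSeq sequencer. CASAVA 1.8, STAR, HTSeq and the build GRCm38.p6 are named in the submitters' processing notes. The annotation release, adapter trimming and use of strand are not given in the sources used here, so reads from overlapping genes cannot be told apart. Of 55335 gene identifiers, 55154 matched GENCODE M21, and those unmatched held 57 of 25027120 counts.

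Tests used edgeR 4.0.16 in R 4.3.3: glmQLFit and glmQLFTest on the counts with TMM scaling, after filterByExpr (minimum count 10, minimum total 15), over the 12 NPC libraries, which share an estimate of the spread. A gene was called at a Benjamini-Hochberg adjusted p under 0.05 over all genes tested. CPM are counts per scaled library total times 1e+06, log2 changes are fitted values, and SE is the size of the log2 change divided by the square root of the F statistic. The mESC comparison used the 12 mESC libraries, and the difference between cell types all 24. The script was tested on simulated data. Ratios from 1 to 3 counts have 95% exact binomial intervals for counting error only. Alternatives were DESeq2 size factors, library totals, TMM without genes above 5% of counts, no filter, the DESeq2 1.42.0 Wald test, a replicate block, the compared libraries alone, no Q20 group, and each library left out.

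Named genes had an adjusted p under 0.05, at least 10 CPM in the higher group and groups that did not overlap, and were the 15 with the smallest p per direction in the main comparison, 3 in the others, and called members of the gene lists; genes with no call were named by their CPM. Any other gene is said to have been picked with its values in view. The comparison and the lists were chosen with earlier results of these data known. After the files were read, the microRNA list was corrected to leave out host genes and the snRNA list to leave out Rnu73b, a snoRNA. Sharing between genes was counted over stretches of 30 bases in the annotated transcripts. Some genes are not reported here.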

Additional observations from a re-analysis of the deposited data

Results flagged for a closer look

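The change of the long noncoding RNA Rian between Q92 and WT differed between cell types, by -2.91 on the log2 scale (NPC minus mESC, SE 0.57, adjusted p = 0.0376 over 904 genes, edgeR). In NPC Rian had 67.4 and 51.6 CPM in WT and 22.0 and 44.9 CPM in Q92 (log2 change -0.84, adjusted p = 0.1035). In mESC it had 618.3 and 333.9 CPM in WT and 1835 and 1484 CPM in Q92 (log2 change 1.801, adjusted p = 0.9986). It lies in the imprinted Dlk1-Dio3 region, whose noncoding RNAs are read from the maternal allele. The difference lay between -3.51 and -2.48 when any 1 of the 8 libraries was left out and was lost in 5 of these 8 fits. It was also lost with library totals (-2.17, adjusted p = 0.092), without genes above 5% of counts in the scaling (adjusted p = 0.103), with no filter (adjusted p = 0.821) and with the 8 libraries alone (adjusted p = 0.221).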

How the results depend on the processing

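None of the 83 genes called between Q92 and WT NPC changed direction in any of the 12 alternatives. They were selected by p from the same libraries and their groups did not overlap, so a reversal was unlikely from the start. Between Q92 and WT NPC, 83 genes were called (38 higher, 45 lower). The count was 27 with no filter on low counts (3 higher, 24 lower), which also changed the scaling and the number of genes tested, 52 with the 4 libraries alone (19 higher), 10 to 94 when a library was left out (4 to 41 higher, 6 to 53 lower), and 69 without the Q20 group (25 higher). The higher genes numbered 22 with DESeq2 size factors and 9 with the DESeq2 Wald test, in which 239 genes had no adjusted p, and the lower genes 11 with library totals. The cause of these shifts was not tested. The genes called in all 12 alternatives were Gm23547 and Peg10 (higher) and Gm24494, mt-Ts2, Snord61, Snord87 and Snord98 (lower).

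Against Q50 the count of 83 became 25 with no filter, 131 with the 4 libraries alone and 23 to 42 with a library left out. Against Q111 the count of 47 became 81 with library totals, 20 with no filter, 125 with the 4 libraries alone and 21 to 24 with a library left out. In mESC the count of 0 became 1 with the replicate block. For the difference between cell types, the count of 1 became 0 with library totals, without genes above 5% of counts, with no filter and with the 8 libraries alone, 6 with the Wald test, 2 with the replicate block and 0 to 3 with a library left out.

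Replicate numbers come from the labels and were not taken to pair the samples: differences between replicates 1 and 2 correlated over 441 genes by -0.0926 to 0.437 between NPC groups, with 0.0667 for WT and Q92 and 0.437 for KO and WT. With the replicate number as a block, 92 genes were called between Q92 and WT NPC (42 higher, 50 lower). Where a library was left out, the remaining library of its group was assumed to vary like the other groups. The depth of these libraries limits messengers and microRNAs, and its effect on each class was not tested.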
